A study of Caenorhabditis elegans with 6 samples.

Results

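Basement membranes are thin sheets of extracellular matrix that lie under epithelia and around muscle, pharynx, gonad and nerves. They are built from a network of laminin, which is laid down first and binds receptors on the cell surface, and a network of type IV collagen, which gives the sheet its strength. Nidogen, perlecan, a collagen of the XV/XVIII type and SPARC are joined to these networks. In the nematode Caenorhabditis elegans much of the type IV collagen and SPARC is made by body wall muscle and cells of the somatic gonad. Laminin chains are made by many tissues.

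The 10 genes described here encode these core components. They were chosen by name: emb-9 and let-2 for type IV collagen, lam-1, lam-2, lam-3 and epi-1 for laminin, nid-1 for nidogen, unc-52 for perlecan, cle-1 for the XV/XVIII collagen and ost-1 for SPARC. All gene probes whose sequence name belonged to these genes were taken, which gave 14 of the 20401 gene probes. They covered 10 of the 19441 sequence names on the array, where a probe without a name counted by its own identifier. Of these, 12 probes of 8 genes were bright enough to pass the filter on dim probes, and 11 probes of 7 genes had the replicate values needed for a test.

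RNA of whole worms of the wild-type strain Bristol N2 was compared with that of the mir-243 mutant strain (allele n4759, in the gene of microRNA miR-243). Worms of both genotypes were described as young adults and grown at 20 °C. Whether their stages matched was not tested. The purpose was to look for direct and indirect effects of losing miR-243 on mRNA levels. Both genotypes of a replicate were hybridised together to an Agilent 2-colour array, and again to another array with the dyes Cy3 and Cy5 exchanged, giving 6 arrays for 3 biological replicates. The mutant was represented by a single allele, and no probe was annotated with the name mir-243, so the loss of miR-243 was not checked on the arrays.

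Each array held 44381 spots, of which 42964 belonged to gene probes. The median spot signal was 237 to 318 intensity units in Cy3 and 370 to 647 in Cy5, and 74.8% to 80.2% of spots in Cy3 and 76.3% to 83.0% in Cy5 carried the scanner's mark for a signal well above background. Every value below is a log2 ratio of mutant over wild type unless it is called a signal, and every fold is on the scale of the corrected signal plus 50 units. The arrays of replicates 1 and 2 were on the same slide and those of replicate 3 on another. Across the 16272 tested probes the median log2 ratio was -0.01, the 25th and 75th percentiles were -0.38 and 0.42, and Pearson's r between replicates was 0.987 to 0.990. The median SD between replicates was 0.0683, so a ratio far under 2-fold could exceed the replicate spread, and the precision of a ratio rests on 3 replicates, since both arrays of a replicate were averaged. The labels do not say that the replicates were separate cultures. The limma p-values rest on the spread between these 3 samples, with each probe's variance drawn towards that of all tested probes. A probe with a large SD of its own can therefore have a small p.

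Most of the measured basement membrane genes were higher in mir-243 mutants, by modest amounts. All tested probes of 6 genes (emb-9, let-2, lam-3, epi-1, nid-1 and unc-52) rose, and both probes of cle-1 fell. In limma, with Benjamini-Hochberg adjustment over all tested probes and a threshold of 0.05, 9 of 11 probes were higher in the mutant, where 42.3% of all tested probes were, and 2 of 11 were lower, where 41.3% were. In either direction the 11 of 11 stand beside 83.5% of all tested probes, so passing the test was the usual outcome on these arrays. At 2-fold as well, 1 of 11 probes was called, against 16.3% of all tested probes. It was higher, against 9.18%, and 0 of 11 were lower, against 7.09%. Without a test, 9 of 11 ratios were above 0, against 49.4%. The 11 probes had a median log2 ratio of 0.33, and the replicate medians varied with an SD of 0.101. Signals of the genotypes did not overlap over the replicates for 9 of 11 probes, beside 70.6% of all tested probes. The sign was the same on all 6 arrays for 10 probes and on 5 arrays for 1. No share over all tested probes is given beside these sign counts, so they are not read as particular to the members.

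**Figure D1:**
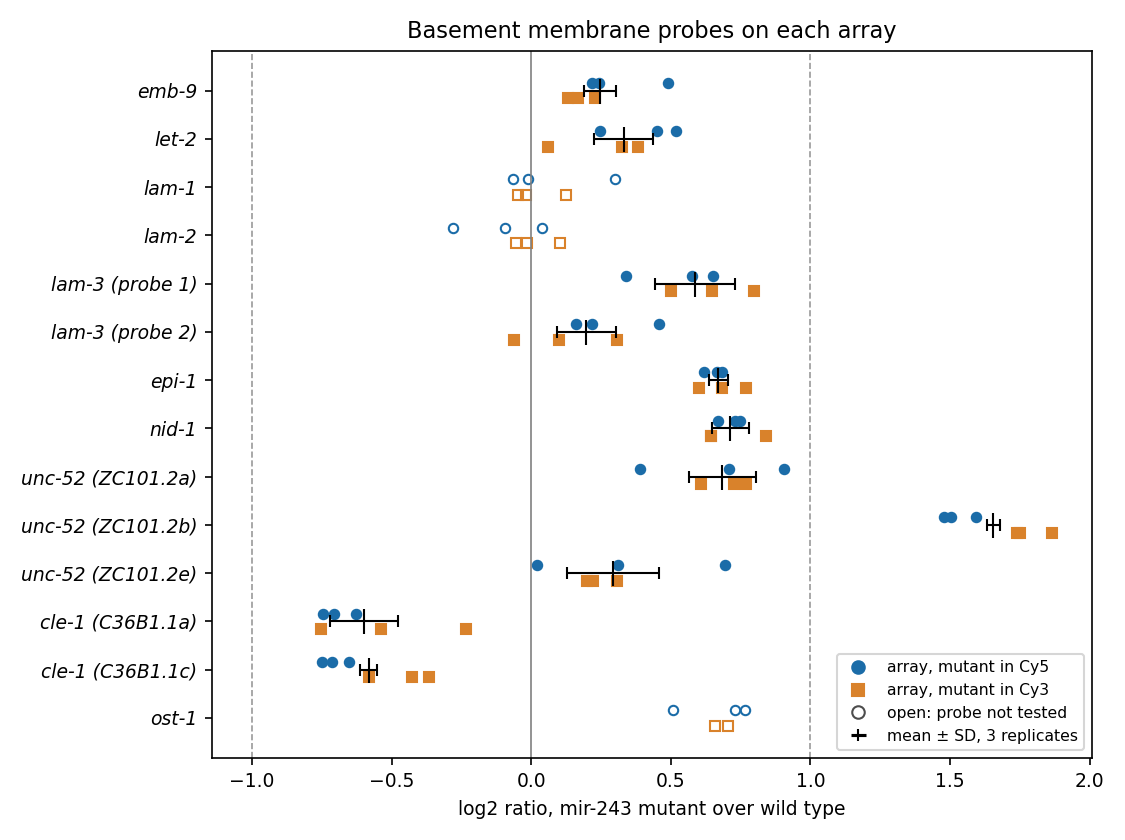
Log2 ratio of mir-243 mutant over wild type on each array for the 14 basement membrane probes, with the mutant in Cy5 (circles) or in Cy3 (squares). Open symbols are the probes of lam-1, lam-2 and ost-1, which were not tested, bars are the mean ± SD of 3 replicates, and dashed lines mark 2-fold. The ZC101.2b probe of unc-52 lies beyond 2-fold on all 6 arrays, and the cle-1 probes lie below 0 on all 6.

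The type IV collagen chains showed small increases. A collagen IV molecule of the worm contains chains from both emb-9 and let-2, and each gene had a single probe. For emb-9 (K04H4.1a) the normalised log2 signal was 13.46, 13.24 and 13.52 in wild-type replicates 1, 2 and 3, and 13.77, 13.45 and 13.75 in the mutant. The genotypes overlapped, because replicate 2 of the mutant was below replicates 1 and 3 of the wild type, yet within each replicate the mutant was brighter. The log2 ratio of emb-9 was 0.31, 0.21 and 0.22, with a mean of 0.25 ± 0.0569 (SD, n = 3), a limma 95% interval of 0.15 to 0.34 and an adjusted p of 1.54e-04. On the Cy5-mutant array of replicate 1 it was 0.49, apart from the other 5 arrays at 0.13 to 0.24.

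For let-2 (F01G12.5a) the log2 signal was 12.34, 12.66 and 12.43 in the wild type and 12.79, 12.91 and 12.71 in the mutant, with no overlap. Over the replicates the ratio of let-2 was 0.45, 0.26 and 0.29, with a mean of 0.33 ± 0.105 (SD, n = 3), an interval of 0.23 to 0.44 and a limma adjusted p of 2.61e-05. The ratio of let-2 exceeded that of emb-9 by 0.08 ± 0.0485 (SD, n = 3), in the same direction in 3 of 3 replicates, with an exact two-sided sign-flip permutation p of 0.25, the smallest that 3 replicates allow, and 0.375 after adjustment over the 9 pairs of probes compared. Both collagen IV increases depended on the normalisation within arrays. When arrays were centred on their median instead of normalised by loess, the log2 ratio was 0.07 for emb-9 (limma adjusted p = 0.322) and 0.06 for let-2 (limma adjusted p = 0.422).

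Laminin is a trimer of an alpha, a beta and a gamma chain. The worm has a pair of alpha chains, encoded by lam-3 and epi-1, which pair with the same beta chain, encoded by lam-1, and the same gamma chain, encoded by lam-2. The epi-1 (K08C7.3b) log2 signal was 13.36, 13.30 and 13.29 in the wild type and 14.04, 13.99 and 13.92 in the mutant. Every mutant replicate was brighter than every wild-type replicate. The log2 ratio of epi-1 was 0.68, 0.69 and 0.63, with a mean of 0.67 ± 0.0332 (SD, n = 3), 1.59-fold, and a limma adjusted p of 4.66e-09.

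The other alpha chain, lam-3 (T22A3.8), had 2 probes, numbered here in the order of their identifiers, and they gave different ratios. Probe 1 had a log2 signal of 7.40, 7.21 and 7.30 in the wild type and 8.04, 7.63 and 7.99 in the mutant, with no overlap. Its log2 ratio was 0.65, 0.42 and 0.69, with a mean of 0.59 ± 0.144 (SD, n = 3), and a limma adjusted p of 2.20e-07. Probe 2 had a log2 signal of 6.74, 6.70 and 6.87 in the wild type and 7.02, 6.78 and 7.11 in the mutant, so that replicate 2 of the mutant fell within the wild-type range. This probe was well above background in the wild type on 5 of 6 arrays and in the mutant on 6 of 6. Its ratio in the replicates was 0.28, 0.08 and 0.23, with a mean of 0.20 ± 0.106 (SD, n = 3) and a limma adjusted p of 0.00203, positive on 5 of 6 arrays. Probe 1 of lam-3 exceeded probe 2 by 0.39 ± 0.0575 (SD, n = 3), on 6 of 6 arrays. The sizes for both probes depended on the processing. With the deposited processed signals, used in place of both the background correction and the loess, they were 0.97 and 0.41. Without background correction they were 0.46 and 0.11. On the arrays with the mutant in Cy3 the ratio of lam-3 probe 2 was 0.12 (limma adjusted p = 0.153). The order of both lam-3 ratios was the same with the processed signals.

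The ratio of epi-1 was above that of lam-3 probe 2 by 0.47 ± 0.125 (SD, n = 3), on 6 of 6 arrays. Against lam-3 probe 1 the difference was 0.08 ± 0.170, smaller than its SD, so the alpha chains could not be ordered by their change. For the laminin chains that both alpha chains share, no change could be measured. The probes of lam-1 (W03F8.5) and lam-2 (C54D1.5) were not well above background on any of the 6 arrays in either genotype. Without the filter on dim probes their log2 ratios were 0.05 (limma adjusted p = 0.372) and -0.05 (limma adjusted p = 0.392), which are ratios of background-level signals and say nothing of the transcripts.

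Nidogen is a glycoprotein that binds laminin and type IV collagen, and in the worm it helps position nerves and synapses. The single nid-1 (F54F3.1) probe had a log2 signal of 10.97, 11.05 and 10.77 in the wild type and 11.67, 11.71 and 11.56 in the mutant, without overlap. The replicates gave log2 ratios of 0.70, 0.66 and 0.79, with a mean of 0.71 ± 0.0656 (SD, n = 3), 1.64-fold, and a limma adjusted p of 3.89e-09. With median centring the value for nid-1 was 0.41. The increase of nid-1 differed from that of epi-1 by 0.04 ± 0.0986 (SD, n = 3), which is within the replicate spread.

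Perlecan, encoded by unc-52, is the heparan sulfate proteoglycan of the basement membrane between body wall muscle and epidermis, where it anchors the attachment sites of the myofilaments. Its transcripts are alternatively spliced, and the array carried 3 probes named for transcripts ZC101.2a, ZC101.2b and ZC101.2e. Which exons each probe lies in is not given in the sources used here. The 3 probes rose by different amounts.

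The ZC101.2b probe of unc-52 had a log2 signal of 9.52, 9.90 and 9.52 in the wild type and 11.15, 11.57 and 11.19 in the mutant, the widest separation of the set. Its log2 ratio was 1.63, 1.67 and 1.67, with a mean of 1.66 ± 0.0242 (SD, n = 3), 3.15-fold, an interval of 1.56 to 1.75 and a limma adjusted p of 5.21e-13. It was the only tested basement membrane probe past 2-fold, here and under each of the 17 alternative settings, and 3.48% of all tested probes were as high or higher. On the single arrays the unc-52 (ZC101.2b) ratio was 1.48 to 1.86, with a mean of 1.53 where the mutant was in Cy5 and 1.79 where it was in Cy3.

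The ZC101.2a probe of unc-52 had a log2 signal of 11.64, 11.83 and 11.85 in the wild type and 12.46, 12.41 and 12.51 in the mutant. Its log2 ratio was 0.82, 0.58 and 0.66, with a mean of 0.68 ± 0.121 (SD, n = 3), 1.61-fold, and a limma adjusted p of 2.20e-08, and it was 0.37 with median centring. The ZC101.2e probe had the smallest and most variable ratio of the 3. Its log2 signal was 9.89, 9.80 and 9.90 in the wild type and 10.34, 9.92 and 10.21 in the mutant, with the lowest mutant replicate just above the highest of the wild type. The log2 ratio of unc-52 (ZC101.2e) was 0.45, 0.12 and 0.31, with a mean of 0.29 ± 0.163 (SD, n = 3) and a limma adjusted p of 3.00e-04.

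Within unc-52 the ZC101.2b probe exceeded the ZC101.2a probe by 0.97 ± 0.143 and the ZC101.2e probe by 1.36 ± 0.182 (SD, n = 3), and ZC101.2a exceeded ZC101.2e by 0.39 ± 0.0579. Each of these differences was several times its SD and had the same sign on 6 of 6 arrays. The exact sign-flip permutation p was 0.25 for each, the smallest possible with n = 3, and 0.375 after adjustment over 9 pairs. A mean over the probes of unc-52, 0.88, would hide this spread.

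**Figure D2:**
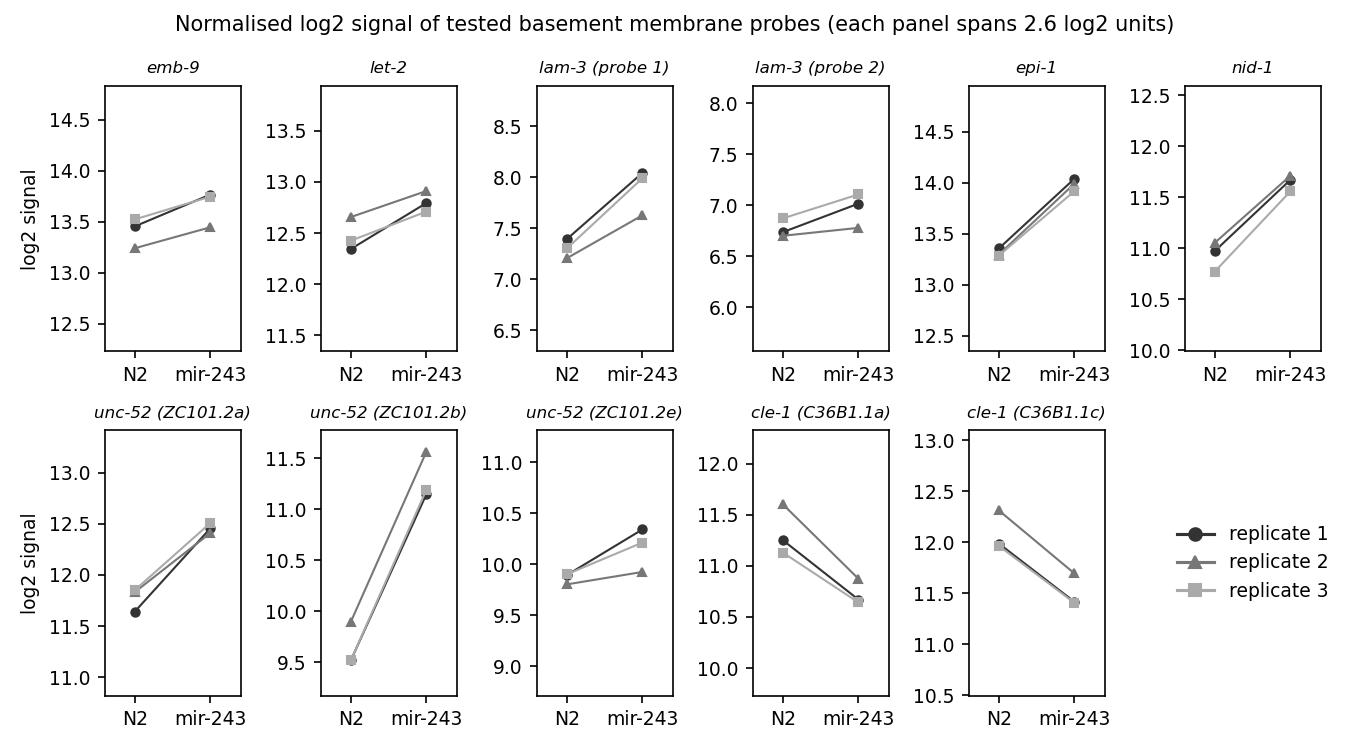
Normalised log2 signal of the 11 tested basement membrane probes in N2 (left) and mir-243 mutants (right), with a line joining the genotypes of each of the 3 replicates. Panels have different axis ranges of equal height, so slopes can be compared between panels and levels cannot; the slope is steepest for the ZC101.2b probe of unc-52 and points down in both cle-1 panels.

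The collagen of the XV/XVIII type was the exception in direction. In the worm cle-1 is expressed largely in neurons, and its protein is found in basement membranes of the nervous system, where it has a part in axon guidance and synapses. The C36B1.1a probe of cle-1 had a log2 signal of 11.25, 11.60 and 11.13 in the wild type and 10.67, 10.87 and 10.64 in the mutant, with no overlap. Its log2 ratio was -0.58, -0.73 and -0.49, with a mean of -0.60 ± 0.121 (SD, n = 3), 1.52-fold lower, and a limma adjusted p of 8.97e-08. The C36B1.1c probe of cle-1 had a log2 signal of 11.99, 12.31 and 11.97 in the wild type and 11.42, 11.70 and 11.41 in the mutant, again without overlap. Its replicates gave ratios of -0.57, -0.62 and -0.56, and its mean was -0.58 ± 0.0312 (SD, n = 3), with a limma adjusted p of 2.03e-08. Unlike those of unc-52, the probes of cle-1 gave the same size of change, differing by -0.02 ± 0.0906, less than the SD. Both cle-1 probes were lower on all 6 arrays and under all 17 alternative settings, and with median centring the decreases were larger, -0.88 for C36B1.1a and -0.90 for C36B1.1c.

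SPARC is a calcium-binding glycoprotein that binds type IV collagen. The single ost-1 (C44B12.2.3) probe carried that mark for both genotypes on all 6 arrays but was not tested, because its spots on the Cy3-mutant array of replicate 1 carried outlier marks, and replicate 1 lacked a value. In replicates 2 and 3 the log2 signal of ost-1 was 12.29 and 12.73 in the wild type and 13.03 and 13.31 in the mutant. The log2 ratio was 0.74 and 0.58, and on the 5 arrays with a value it was 0.51 to 0.77. With the marked spots kept, the mean over 3 replicates was 0.69 (limma adjusted p = 2.15e-08), which is close to the sizes of epi-1 and nid-1.

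**Figure D3:**
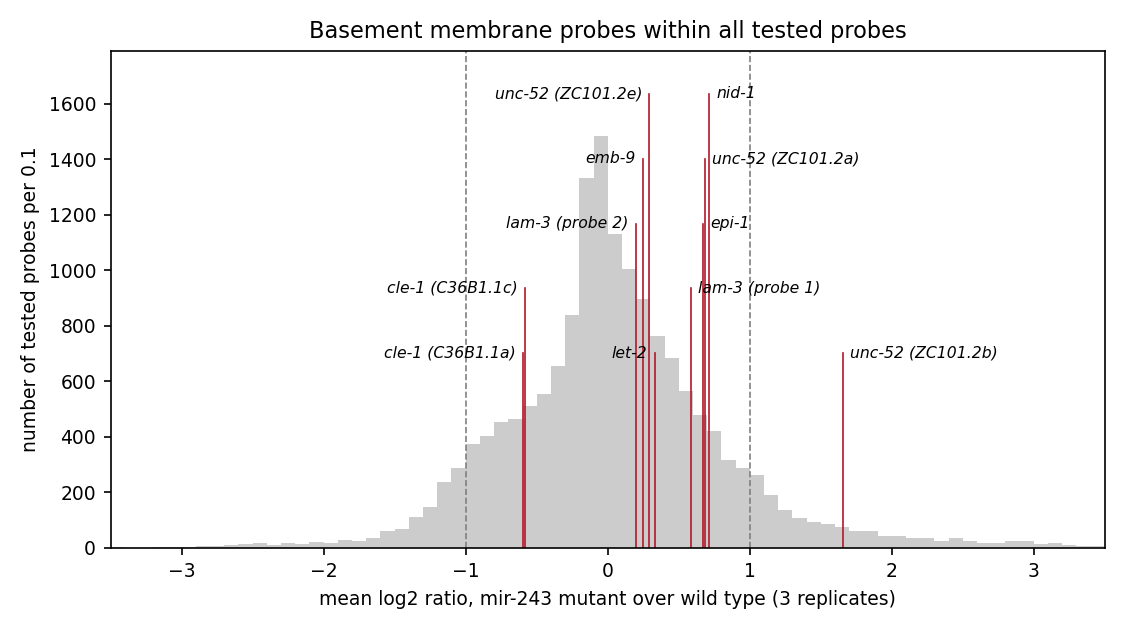
Number of tested probes by mean log2 ratio of mir-243 mutant over wild type (grey, 16272 probes in bins of 0.1, the outermost probes lying beyond the axis), with red lines at the 11 basement membrane probes. Dashed lines mark 2-fold; 9 lines lie above 0, 2 below, and only that of unc-52 (ZC101.2b), at 1.66, lies beyond 2-fold.

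Other proteins of basement membranes and of the cells that contact them were measured in lists that share no gene with the 10. Of 10 tested probes for other basement membrane matrix proteins and cell-surface glypicans, 6 were higher, 3 were lower and 1 did not pass the test. Their median log2 ratio was 0.23. Over all tested probes 42.3% were higher and 41.3% lower, and the counts of this list and those below stand beside these shares. The largest changes by gene were those of mig-6, unc-6 and gpn-1. The mig-6 gene encodes papilin, and its probes had log2 ratios of 0.55 ± 0.0489 (C37C3.6a) and 1.18 ± 0.138 (C37C3.6b, SD, n = 3). For unc-6, which encodes the guidance molecule netrin, the ratio was 0.74 ± 0.136, and for gpn-1, which encodes a glypican, it was 0.53 ± 0.101. The 3 lower probes were those of spon-1 (-0.19), which encodes F-spondin, lon-2 (-0.15), which encodes a glypican, and 1 of 2 probes of test-1 (-0.16), named after their values were seen. The other test-1 probe, named for the same transcript, was higher, at 0.25 (limma adjusted p = 1.20e-04). With median centring the lower test-1 probe was at 0.01 and the higher at 0.08. The lower probes of test-1, spon-1 and lon-2 each lost the call under 2 of 17 settings. With only Cy5-mutant arrays, 6 of the 10 probes were higher and 0 lower. With only Cy3-mutant arrays, 5 were higher and 3 lower. The spon-1 ratio had an SD of 0.166 (n = 3) and was negative on 4 of 6 arrays.

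Among receptors for the matrix, 6 of 9 tested probes were higher, 1 was lower and 2 did not pass the test, with a median of 0.55. The integrin alpha chain pat-2, which acts in muscle, had a log2 ratio of 0.83 ± 0.0528 (SD, n = 3) and the receptor tyrosine phosphatase ptp-3 one of 0.69 ± 0.0433. The probes of sdn-1, which encodes syndecan, gave 0.21 ± 0.0746 (F57C7.3b) and 1.00 ± 0.0505 (F57C7.3a.1). The lower probe was that of pat-3, named after its value was seen, which encodes the beta chain shared by the integrins of the worm. The log2 ratio of pat-3 was 0.02, -0.29 and -0.22 in replicates 1, 2 and 3, with a mean of -0.16 ± 0.164 (SD, n = 3) and a limma adjusted p of 0.0159. The call for pat-3 was lost under 4 of 17 settings, where the adjusted p reached 0.341.

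The list of matrix modification and turnover held mainly enzymes that modify, cross-link or cut the matrix, and their inhibitors. Of its tested probes, 9 of 10 were higher and 1 was lower, with a median of 0.63. At 2-fold as well, 4 of 10 were higher and 0 lower, beside 9.18% and 7.09% of all tested probes. The largest ratios were 3.12 ± 0.0852 (SD, n = 3) for dpy-18, 1.96 ± 0.0755 for pdi-2 and 1.16 ± 0.0784 for zmp-1. The dpy-18 and pdi-2 genes encode the alpha and beta subunits of a prolyl hydroxylase that modifies collagens of the cuticle as well as type IV collagen, and zmp-1 encodes a matrix metalloprotease of the anchor cell. For let-268, the lysyl hydroxylase that type IV collagen needs for secretion, the ratio was 0.71 ± 0.104, and for the peroxidasin pxn-2 it was 1.06 ± 0.0944, both named after their values were seen. The lower probe was that of tmem-131, at -0.11 (limma adjusted p = 0.0376), named after its value was seen, whose call was lost under 10 of 17 settings and whose ratio reached 0.04. Of the higher probes, that of timp-1 (0.21), an inhibitor of metalloproteases named for the same reason, lost its call under 4 of 17 settings and was -0.11 with median centring, where 8 probes of the list were higher and 1 was lower.

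Proteins that join integrins to the muscle cytoskeleton had 10 of 13 tested probes higher, 0 lower and 3 that did not pass the test, with a median of 0.46 and no probe past 2-fold. The largest by gene were alp-1, a PDZ and LIM domain protein, at 0.72 ± 0.0800, the actopaxin pat-6 at 0.61 ± 0.0832 and the LIM domain protein unc-95 at 0.60 ± 0.0288 (SD, n = 3). Both probes of deb-1, which encodes vinculin, did not pass the test (-0.05 and 0.02), nor did 1 of 2 probes of zyx-1 (0.08), and these genes and pat-4 were named after their values were seen. With median centring 9 of the 13 adhesion probes were higher, the median was 0.19, and pat-4 and both zyx-1 probes turned below 0.

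**Figure D4:**
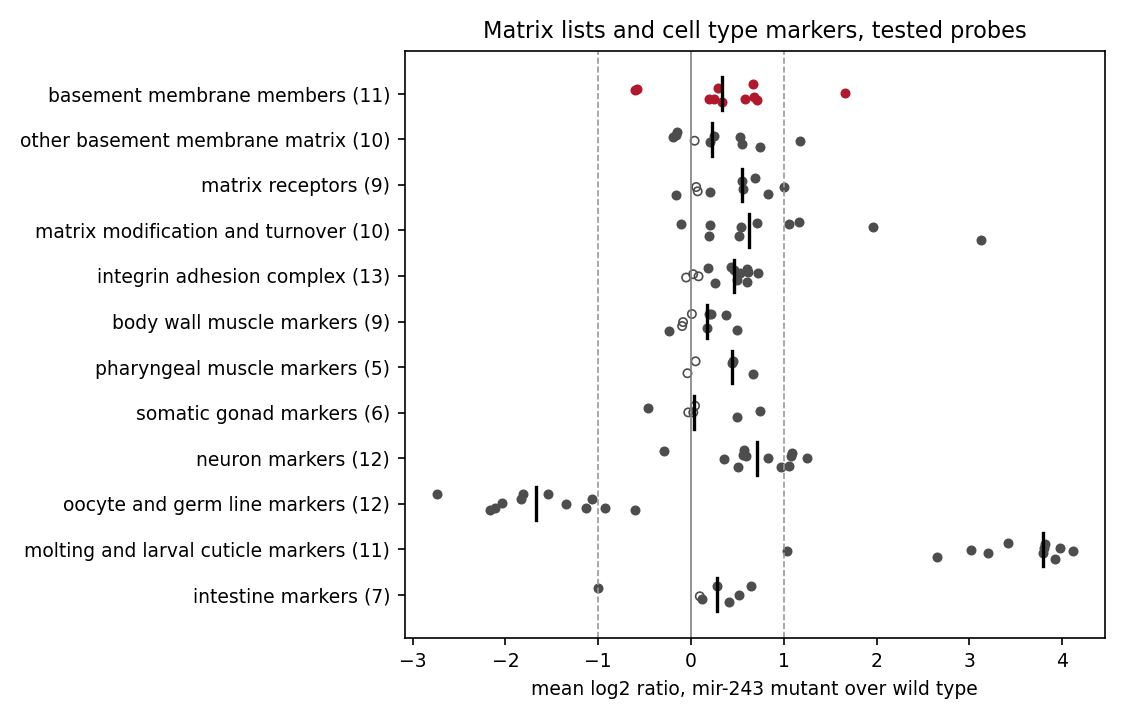
Mean log2 ratio of mir-243 mutant over wild type for each tested probe of the basement membrane genes (red) and of 11 other lists (grey), with the number of tested probes in parentheses. Filled points had an adjusted p under 0.05, open points did not, and black bars are list medians, from -1.67 for oocyte and germ line markers to 3.79 for molting and larval cuticle markers.

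Markers of cell types and of the molt also differed between the genotypes, some by far more than the matrix genes. In whole worms, fewer cells of a type and less RNA per cell cannot be told apart. Body wall muscle is a main source of type IV collagen. Of its markers, 5 of 9 tested probes were higher, beside 42.3% of all tested probes. Of the rest, 1 was lower and 3 did not pass the test, and the list median was 0.18. The summed linear signal of these markers was 128101 to 129920 in wild-type replicates and 128209 to 135481 in the mutant. Their median was -0.04 with median centring. Of the pharyngeal muscle markers 3 of 5 probes were higher and 0 lower, with a median of 0.45. The other 2, of the myosins myo-1 (0.05) and myo-5 (-0.04), did not pass the test and were named after their values were seen. The pharyngeal myosin myo-2 was not well above background. Somatic gonad markers had 2 of 6 probes higher and 1 lower, with a median of 0.03, which was 0.16 with 3 probes higher under median centring.

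Neuron markers were mostly higher, with 11 of 12 probes up, 1 down and a median of 0.71, beside the decrease of cle-1. The lower neuron probe was that of unc-119, at -0.29 ± 0.0236 (SD, n = 3), named after its value was seen. Intestine markers had 5 of 7 probes higher and 1 lower, with a median of 0.28, which was 0.14 under median centring. The lower intestine probe, of ges-1, had the largest change of that list, at -1.01 ± 0.0335 (SD, n = 3). It was the only intestine probe past 2-fold and was named after its value was seen. Under the 17 alternative settings the ges-1 ratio was -1.15 to -0.88. The oocyte and germ line markers were all lower, 12 of 12 tested probes with a median of -1.67, and their summed signal was 282649 to 302894 in the wild type and 61935 to 64546 in the mutant. All 11 tested probes for molting and larval cuticle markers were higher, with a median of 3.79, and their summed signal was 12096 to 13180 in the wild type and 141014 to 157676 in the mutant. The part of these marker differences, or of any difference in stage between the genotypes, in the ratios of the basement membrane genes was not tested.

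**Figure D5:**
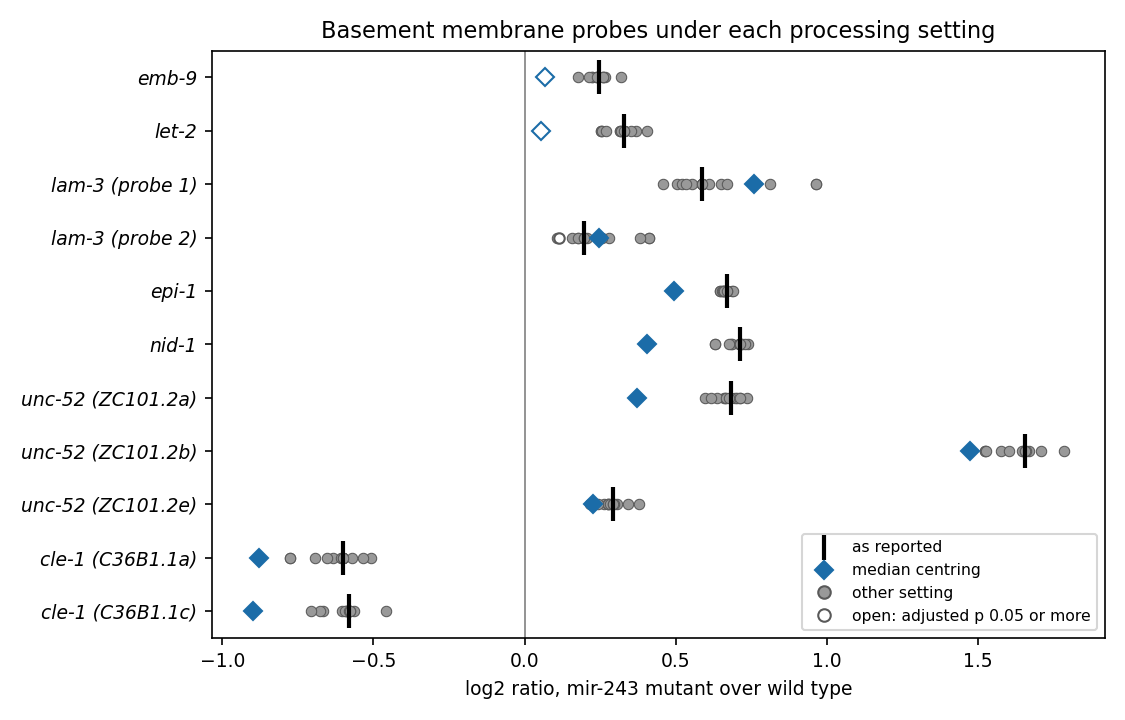
Log2 ratio of mir-243 mutant over wild type for the 11 tested basement membrane probes as reported (black bars), with median centring of each array in place of loess (blue diamonds) and under the other alternative settings (grey circles). Open symbols had an adjusted p of 0.05 or more, which holds for emb-9 and let-2 with median centring and for lam-3 probe 2 on the arrays with the mutant in Cy3.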

How the data were processed

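RNA from N2 and mir-243 young adults (500 ng per sample) was copied from random primers and labelled with Cy3 and Cy5. Per the file headers, the authors read the arrays with Agilent Feature Extraction 10.5.1.1 (the submitters' processing notes name 8.5.1.1). The deposited intensity values used here were spot and local background medians, with nothing normalised. As alternatives, the deposited processed intensity of each channel and the authors' deposited log2 ratio of Cy5 over Cy3 were used. The log10 ratio of the processed intensities was deposited too and served to find the scale of the log2 ratio, whose values were within 0.001 of it for 88.0% to 90.8% of probes; column medians were -0.113 to 0.0673. The probes' genome build is not given in the sources used here. Quality marks of 0 or 1 were deposited as another score for each spot.

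In limma 3.58.1 (R 4.3.3, data.table, version 1.17.8), background was corrected by normexp with an offset of 50, fitted on spots without outlier marks. Ratios were normalised by loess (span 0.3), marked spots were set to missing, spots were averaged per probe, ratios were turned to mutant over wild type, and both dye orientations of a replicate were averaged. Probes were tested when at least 50% of their spots were well above background on at least 4 of 6 arrays in at least 1 genotype's channel and all 3 replicates had a value: 16812 of 20401 passed the first condition and 16272 both. lmFit and eBayes tested each ratio against 0, two-sided, with Benjamini-Hochberg adjustment. The plan's mean spot signal was not used, because the columns used here hold medians. The steps were tested on simulated data in which few probes changed, as many up as down. Normalisation where most probes pass the test, as on these arrays, was not tested in that way.

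Names came from the files and RefSeq genes (WBcel235), which matched 19057 of 19837 named probes. The named genes were all members with every probe, and in 4 lists the 3 genes with the largest mean ratio; any other gene named with a value was chosen after its values were seen. The members and lists were chosen with earlier results of these data known.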

Additional observations from a re-analysis of the deposited data

Results flagged for a closer look

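The log2 ratio of emb-9 was 0.49 in replicate 1 where the mutant was labelled with Cy5, while the other 5 arrays gave 0.13 to 0.24. The gap to the nearest array was 0.690 of the whole range, above Dixon's critical value for 6 values. Of 14 probes examined in this way 1 stood out, where chance gives about 1 in 20. Without replicate 1 the mean ratio of emb-9 was 0.21, with a limma adjusted p of 0.00272.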

How the results depend on the processing

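Under 17 alternatives, 2 of them (slide as a block, local background marks ignored) chosen after seeing the data, the count of lower basement membrane probes was 2 and the count past 2-fold was 1, and the count of higher probes ranged from 7 with median centring to 10 where ost-1 could be tested. The median ratio, 0.33 as reported, was 0.51 with the authors' deposited ratios, 0.46 with outlier spots kept, 0.46 with local background marks ignored, 0.46 for probes that stood well above background everywhere and 0.46 where only Cy5-mutant arrays were used. It was 0.25 with median centring, 0.26 where only Cy3-mutant arrays were used and 0.29 without the filter on dim probes. Of the ratios of the 11 single probes under these alternatives, 183 kept their direction and side of the threshold, 3 lost the call (emb-9 and let-2 with median centring, lam-3 probe 2 with the mutant in Cy3) and 0 reversed. The causes were not tested. Leaving out a replicate gave medians of 0.35 to 0.41.

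With the replicate number as a block over the 6 arrays, the counts were 9 higher and 2 lower, with 1 past 2-fold, and the median was 0.33. The correlation within replicates was -0.31, and the block changed no call among the 11 basement membrane probes. In the list of matrix modification and turnover it left 9 probes higher and 0 lower, the call of tmem-131 being lost. With slide as a block the median was 0.32. The alternative with mean spot signals was not run, because the columns used hold medians. Dim signal limits lam-1 and lam-2, for which nothing can be said, and lam-3.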
